A study of Mus musculus with 9 samples.

Results

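The genes described here are the contractile genes of smooth muscle and their regulators, *Myl9*, *Cnn1*, *Cnn2*, *Tagln*, *Myh11*, *Mylk*, *Smtn*, *Cald1*, *Myocd* and *Srf*, chosen by name. All 10 were found among the 24571 gene symbols of the expression table, and all 10 belonged to the 13682 genes that were tested, whose mean over the 9 libraries reached 1 TPM. The libraries were made from hearts of C57BL/6N mouse embryos at E18.5, shortly before birth. They fell into 3 genotypes with 3 libraries each, wild type, heterozygous and homozygous for CTCF-R567W. This allele carries an amino-acid substitution in CTCF, the DNA-binding zinc-finger protein that anchors chromatin loops, and was introduced into the mouse line by CRISPR/Cas9 editing, so that it was not limited to the heart. RNA was extracted from homogenised heart tissue without sorting of cells, and fewer cells of a type and less RNA per cell cannot be told apart in such samples. Expression was given as TPM, in which read numbers are corrected for gene length and every library is brought to the same total, so that levels of different genes can be compared within a library. The labels name the libraries as replicates without saying that each came from a separate embryo, so p-values measure the spread between these libraries, which may in part be technical.

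Smooth muscle contracts when calcium-bound calmodulin activates the myosin light chain kinase encoded by *Mylk*, which phosphorylates the regulatory light chain encoded by *Myl9*. The heavy chain of smooth muscle myosin, encoded by *Myh11*, then pulls on actin filaments, to which calponins, transgelin, caldesmon and smoothelin bind. Many of these genes are switched on by SRF, a factor that binds CArG boxes, together with its muscle-specific coactivator myocardin, the product of *Myocd*. In the late embryonic heart the coronary vessels and the walls of the great arteries hold smooth muscle cells, and immature cardiomyocytes also use several of the same genes, so that their transcripts in whole hearts need not come from smooth muscle alone.

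Some libraries carried transcripts of neighbouring organs. Together, 12 genes of airway and lung reached 2632 TPM in replicate 1 of wild type and 1116 TPM in replicate 1 of the heterozygotes, against 8.21 to 58.9 TPM elsewhere. Replicate 1 of the heterozygotes also held 4172 TPM of 15 liver genes, which were at 170 TPM in replicate 1 of wild type and 31.03 to 77.2 TPM elsewhere. Replicate 3 of the homozygotes held 864 TPM of 15 thymocyte genes, which were at 9.58 to 13.4 TPM elsewhere. The sum of 10 cardiomyocyte genes, all of them detected in every library, was 31350 TPM in homozygous replicate 3 and 38594 to 42846 TPM in the others. The share of these tissues in the results below was not tested, but the changes of *Cnn1*, *Myl9* and *Mylk* and the call of *Acta1* are also given without the 3 libraries. *Xist*, which marks female embryos, was at 87.8 to 146 TPM in wild-type replicate 1, the 3 heterozygous libraries and homozygous replicate 1, and did not exceed 0.05 TPM in the other 4, so comparisons with the heterozygous group were not balanced for sex.

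The promoters of these genes are shown because CArG boxes are the sites through which SRF and myocardin act, and because windows with and without a box can then be read beside the transcript values. RefSeq promoter windows on GRCm38.p6 (mm10), which run from 250 bases before to 50 bases after a RefSeq start of a gene, were available for 7 of the 10 genes, with 2 windows for *Cald1*. Windows were searched for the CArG box, whose pattern reads the same on both strands. Of all 32851 windows of this length, 535 (1.63%) held a box, and among the 7 genes *Myl9*, *Cnn2* and *Srf* held at least 1. The window of *Myl9* lies at chr2:156775214-156775513 on the plus strand, that of *Cnn2* at chr10:79988350-79988649 on the plus strand, that of *Srf* at chr17:46556113-46556412 on the minus strand and that of *Cnn1* at chr9:22099003-22099302 on the plus strand. They are given 5′ to 3′ with the boxes in capitals.
Myl9: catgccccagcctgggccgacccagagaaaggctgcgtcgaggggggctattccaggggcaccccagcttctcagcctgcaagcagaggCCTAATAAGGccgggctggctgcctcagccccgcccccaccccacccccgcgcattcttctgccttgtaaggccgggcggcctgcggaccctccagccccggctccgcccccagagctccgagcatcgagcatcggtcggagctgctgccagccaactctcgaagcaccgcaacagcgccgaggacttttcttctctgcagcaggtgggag
Cnn2: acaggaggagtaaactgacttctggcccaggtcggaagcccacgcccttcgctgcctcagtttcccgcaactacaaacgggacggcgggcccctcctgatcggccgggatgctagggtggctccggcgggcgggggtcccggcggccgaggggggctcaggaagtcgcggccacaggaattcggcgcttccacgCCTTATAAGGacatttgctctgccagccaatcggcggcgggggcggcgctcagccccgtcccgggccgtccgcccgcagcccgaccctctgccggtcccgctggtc
Srf: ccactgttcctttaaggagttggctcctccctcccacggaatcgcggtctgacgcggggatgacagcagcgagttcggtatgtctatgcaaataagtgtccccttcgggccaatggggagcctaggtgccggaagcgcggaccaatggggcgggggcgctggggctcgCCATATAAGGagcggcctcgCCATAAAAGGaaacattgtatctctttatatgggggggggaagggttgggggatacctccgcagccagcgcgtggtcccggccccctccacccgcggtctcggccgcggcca
Cnn1: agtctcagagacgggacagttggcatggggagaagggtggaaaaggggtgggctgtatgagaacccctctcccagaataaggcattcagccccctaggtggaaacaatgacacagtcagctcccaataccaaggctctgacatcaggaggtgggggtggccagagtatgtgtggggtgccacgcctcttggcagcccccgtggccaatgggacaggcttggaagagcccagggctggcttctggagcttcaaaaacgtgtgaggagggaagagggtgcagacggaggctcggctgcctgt
The *Myl9* box, CCTAATAAGG, begins 161 bases before the RefSeq start, and the *Cnn2* box, CCTTATAAGG, begins 56 bases before it. *Srf* holds a pair of boxes, CCATATAAGG and CCATAAAAGG, which begin 82 and 62 bases before its start. No box was found in the windows of *Cnn1*, *Mylk*, *Smtn* and *Cald1*, which says only that the pattern is not within these 300 bases. The *Mylk* window (chr16:34784700-34784999) and the *Smtn* window (chr11:3539243-3539542) lie inside the annotated genes. The annotated 5′ ends of these genes, which lie further upstream, were not searched. The windows of *Tagln*, *Myh11* and *Myocd* were not used here.

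In wild-type hearts *Myl9* was by far the most abundant of the 10 transcripts, at 906 ± 38.4 TPM (SD, n = 3), higher than 99.1% of the genes tested. *Myh11* and *Mylk*, which encode its partner and its kinase, were the least abundant, at 4.85 ± 1.04 and 4.27 ± 0.731 TPM. Ordered by their mean over the 9 libraries, the genes ran from *Myl9* through *Smtn*, *Cnn2*, *Cald1*, *Srf*, *Tagln*, *Myocd*, *Cnn1* and *Mylk* to *Myh11*. *Myl9* exceeded *Smtn* in 9 of 9 libraries with separate ranges, and *Smtn* exceeded *Cnn2* in 9 of 9, although their ranges over libraries overlapped. The order of other neighbours was less certain, with overlapping ranges. *Cald1* exceeded *Srf*, *Myocd* exceeded *Cnn1* and *Cnn1* exceeded *Mylk* in 8 libraries each. *Cnn2* exceeded *Cald1* in 6 libraries, *Srf* exceeded *Tagln* in 5, *Tagln* exceeded *Myocd* in 6 and *Mylk* exceeded *Myh11* in 4 of the 9.

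**Figure D1:**
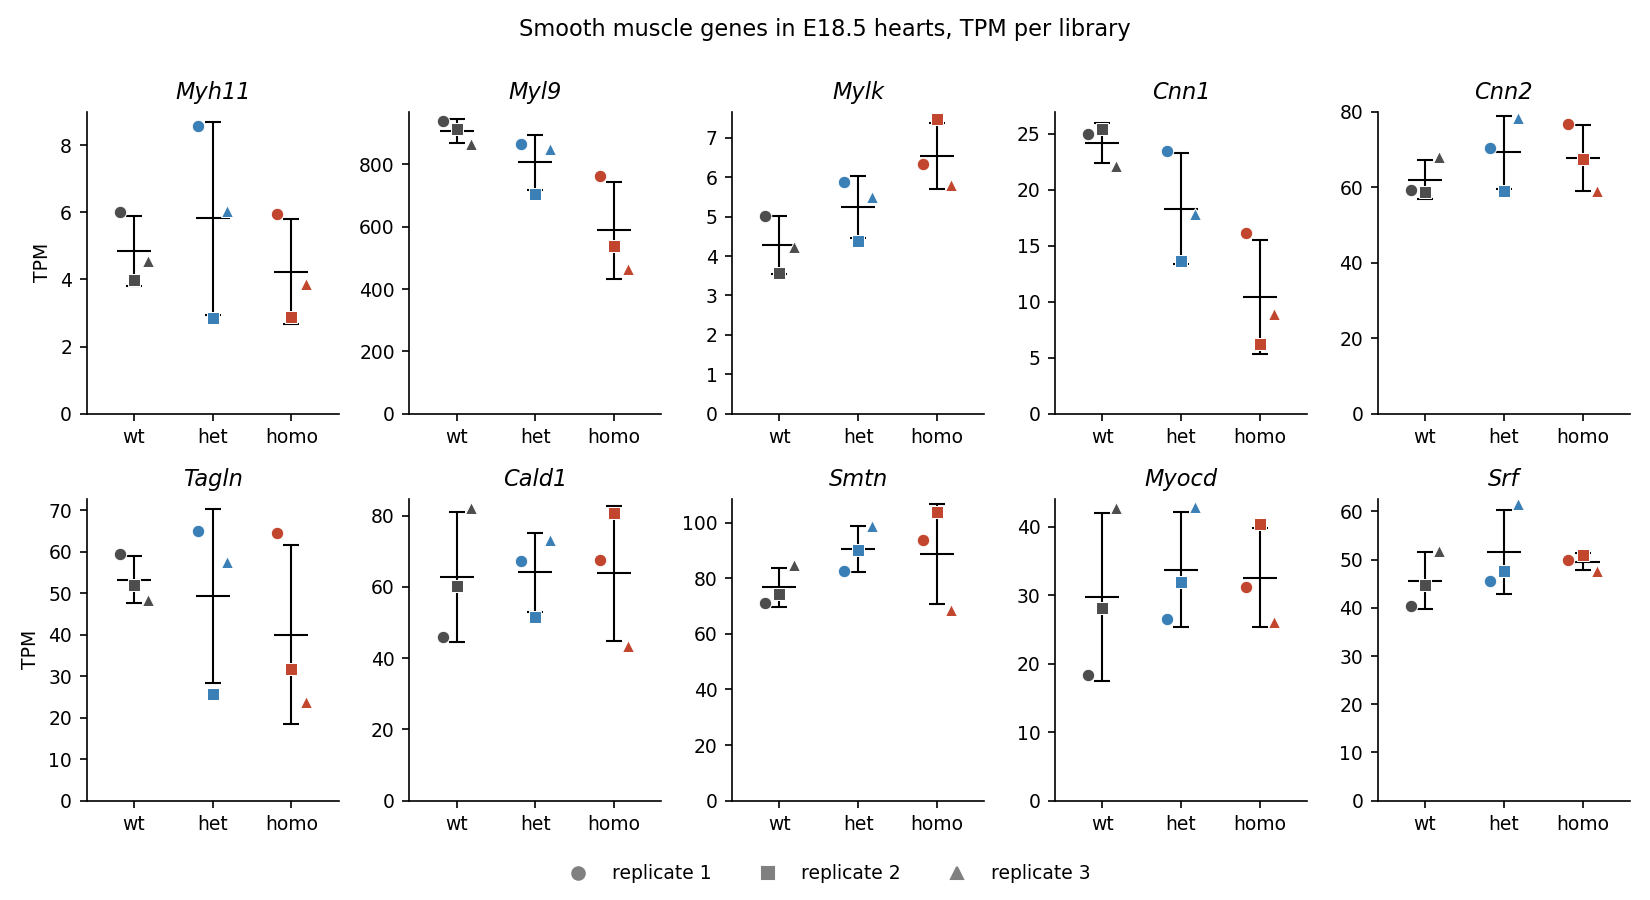
TPM of the 10 smooth muscle genes in wild-type (wt), heterozygous (het) and homozygous (homo) hearts, with 1 point per library, a horizontal line at the group mean and bars of 1 SD (n = 3). Symbols give the replicate number, and each panel has its own axis from 0. Homozygous points of *Myl9* and *Cnn1* lie below all wild-type points and those of *Mylk* above them, while the groups overlap in the other 7 panels.

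Homozygous and wild-type hearts were compared to find which transcripts differ when both *Ctcf* copies are mutant. Within the motor, the light chain, the heavy chain and the kinase had different values. In the order of replicates 1 to 3, as throughout, *Myl9* was at 940.0, 913 and 864 TPM for wild type, 867, 706 and 849.6 TPM for heterozygotes and 762, 537 and 465 TPM for homozygotes. All 3 homozygous values lay below all 3 wild-type values, and homozygous replicate 1 lay within the heterozygous range. The homozygous mean of 588 ± 155 TPM (SD, n = 3) was 0.649 times the wild-type mean. The log2 change on the log2(TPM + 1) scale, which understates changes of genes with low levels, was −0.65 (95% interval −1.01 to −0.29), with a limma adjusted p of 0.0983, and so did not pass the threshold of 0.05.

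*Mylk* had the opposite order. Its levels were 5.02, 3.56 and 4.24 TPM for wild type, 5.88, 4.37 and 5.5 TPM for heterozygotes and 6.33, 7.47 and 5.81 TPM for homozygotes. Every homozygous value exceeded every wild-type value, and the homozygous mean was 1.53 times the wild-type mean. The log2 change was 0.52 (95% interval 0.14 to 0.90) with a limma adjusted p of 0.131. Against the median change of all genes, 0.23, it was 0.29, and 22.3% of all genes also lay higher in homozygous hearts without overlap.

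*Myh11* varied more among libraries of a genotype than between genotypes. It was at 6.01, 3.99 and 4.56 TPM for wild type, 8.59, 2.85 and 6.05 TPM for heterozygotes and 5.94, 2.89 and 3.88 TPM for homozygotes. Replicate 2 was the lowest library of each genotype, and the 3 genotypes overlapped. The homozygous log2 change of −0.19 had a 95% interval of −0.91 to 0.53, which holds the *Myl9* change. The ratio of *Myl9* to *Myh11* within a library, which depends little on the scaling between libraries, had a log2 value of 7.29 ± 0.225 in wild-type, 6.98 ± 0.513 in heterozygous and 6.82 ± 0.271 in homozygous hearts (SD, n = 3 each). The difference between homozygous and wild-type hearts was −0.47 (exact two-sided permutation p = 0.2), and the ranges overlapped.

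Of the genes whose products bind the thin filament, *Cnn1* had the lowest homozygous values relative to wild type. *Cnn1* encodes basic calponin, which inhibits the myosin ATPase and is a marker of differentiated smooth muscle. Its levels were 24.95, 25.45 and 22.1 TPM for wild type, 23.5, 13.6 and 17.9 TPM for heterozygotes and 16.1, 6.25 and 8.93 TPM for homozygotes. Homozygous values were all below wild-type values, but replicate 1 of the homozygous hearts exceeded replicate 2 of the heterozygous hearts. The homozygous mean of 10.4 ± 5.10 TPM was 0.431 times the wild-type mean of 24.2 ± 1.78 TPM (SD, n = 3 each). The log2 change of −1.23 (95% interval −1.86 to −0.60) had a limma adjusted p of 0.0929. *Cnn1* and *Myl9* were also picked by the study from these libraries as decreased genes, so their direction here is not independent evidence. The study used DESeq2 with a cutoff on fold change and a stricter adjusted p, so its calls and those here are not alike. Here the homozygous mean of *Myl9* was 0.649 times the wild-type mean, a smaller change than the study's fold-change cutoff asks for. The study also reported RT-qPCR of decreased cardiac genes, which is not covered here.

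*Cnn2* encodes a calponin found in many cell types besides smooth muscle. It was at 59.4, 58.8 and 67.9 TPM for wild type, 70.5, 59.1 and 78.3 TPM for heterozygotes and 76.6, 67.5 and 59.0 TPM for homozygotes. The groups overlapped, and the homozygous log2 change was 0.12 (95% interval −0.19 to 0.43, limma adjusted p 0.579), which became −0.12 when libraries were scaled by the median ratio of their genes.

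Within a library, the log2 ratio of *Cnn1* to *Cnn2* separated the homozygous hearts from both other genotypes. In wild-type replicates 1 to 3 it was −1.22, −1.18 and −1.57, in the heterozygous replicates −1.54, −2.04 and −2.07, and in the homozygous replicates −2.18, −3.24 and −2.60. All 3 homozygous ratios lay below all heterozygous and all wild-type ratios, while heterozygous replicate 1 lay within the wild-type range. The differences were −1.35 between homozygous and wild-type, −0.79 between homozygous and heterozygous and −0.56 between heterozygous and wild-type hearts. Without homozygous replicate 2 the second of these was −0.50. Exact two-sided permutation p-values were 0.1, 0.1 and 0.2 in this order, where 0.1 is the smallest that 3 against 3 libraries allow. Over the 6 tests of both ratios, the Benjamini-Hochberg adjusted values were 0.3 for each of these 3. Without the 3 libraries with transcripts of other organs the differences were −1.34, −0.65 and −0.68. With homozygous against wild-type changes of −1.23 for *Cnn1* and 0.12 for *Cnn2*, the ratio mostly restates the change of *Cnn1*. As the study picked *Cnn1* from these libraries as decreased, the ratio is not independent evidence.

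**Figure D2:**
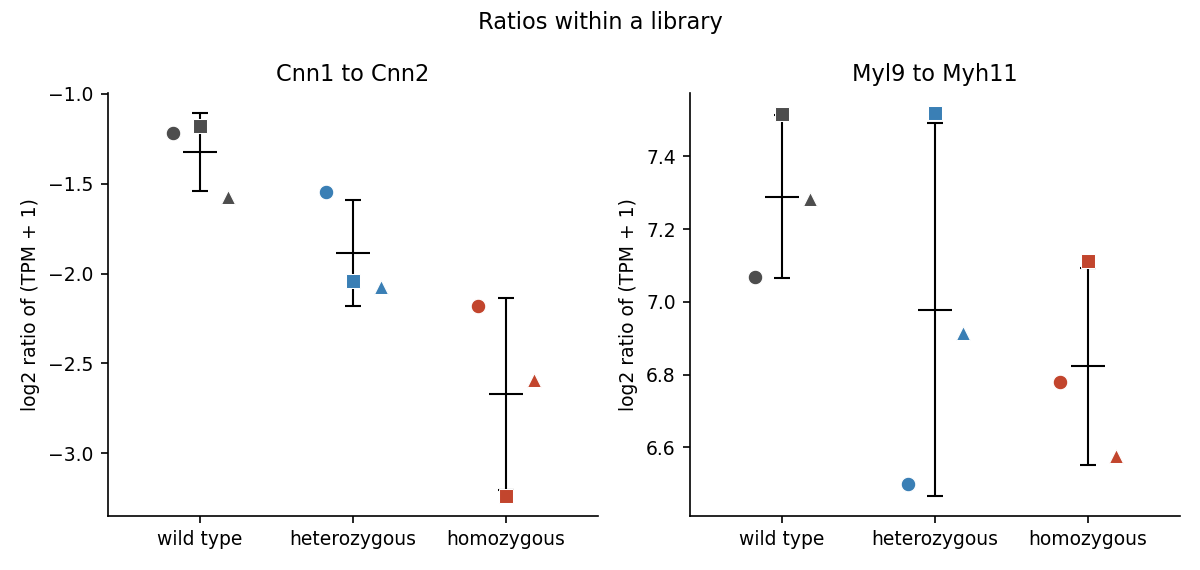
Log2 ratio of (TPM + 1) of *Cnn1* to *Cnn2* (left) and of *Myl9* to *Myh11* (right) in each library, with circles, squares and triangles for replicates 1, 2 and 3, a line at the group mean and bars of 1 SD (n = 3). The axes do not start at 0. The homozygous *Cnn1* to *Cnn2* ratios, −3.24 to −2.18, lie below those of the other genotypes, and the *Myl9* to *Myh11* ratios overlap.

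*Tagln* encodes transgelin, an actin-binding protein of smooth muscle that early cardiomyocytes also make. It was at 59.4, 52.1 and 48.4 TPM for wild type, 64.9, 25.6 and 57.6 TPM for heterozygotes and 64.4, 31.8 and 23.8 TPM for homozygotes. Homozygous replicate 1 was above all wild-type libraries and replicates 2 and 3 were below them, and heterozygous replicate 2 lay between the latter. With this spread the homozygous log2 change of −0.52 had a 95% interval from −1.36 to 0.31 and a limma adjusted p of 0.379. Without the 3 libraries with transcripts of other organs it was −0.14.

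*Smtn* and *Cald1*, which encode smoothelin and caldesmon, overlapped between all genotypes. *Smtn* was at 71.2, 74.3 and 84.7 TPM for wild type, 82.5, 90.1 and 98.8 TPM for heterozygotes and 93.6, 103.8 and 68.7 TPM for homozygotes. Homozygous replicate 3 was the lowest of the 9 libraries and replicate 2 the highest. The homozygous log2 change of *Smtn* was 0.19 (limma adjusted p 0.430) and turned to −0.05 with median-ratio scaling. *Cald1* ranged from 45.9 to 82.0 TPM for wild type, from 51.7 to 73.2 TPM for heterozygotes and from 43.3 to 80.8 TPM for homozygotes, with a log2 change of 0.02 (95% interval −0.54 to 0.58) that turned to −0.22 with that scaling.

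The regulators showed no separation between genotypes. *Srf* was at 40.3, 44.8 and 51.9 TPM for wild type, 45.6, 47.7 and 61.6 TPM for heterozygotes and 49.97, 51.1 and 47.7 TPM for homozygotes. All 3 homozygous values lay within the wild-type range. The log2 change was 0.12 (95% interval −0.19 to 0.43, limma adjusted p 0.574) and −0.11 with median-ratio scaling. *Myocd* was at 18.4, 28.1 and 42.7 TPM for wild type, 26.5, 31.9 and 42.8 TPM for heterozygotes and 31.2, 40.4 and 26.1 TPM for homozygotes. Its lowest and nearly its highest value both came from wild-type libraries. The log2 change of 0.18 had a 95% interval of −0.44 to 0.81 and a limma adjusted p of 0.683, and was −0.05 with median-ratio scaling. Set beside the promoter windows above, the genes with a CArG box, *Myl9*, *Cnn2* and *Srf*, had homozygous log2 changes of −0.65, 0.12 and 0.12. Those without a box in the windows searched, *Cnn1*, *Mylk*, *Smtn* and *Cald1*, had changes of −1.23, 0.52, 0.19 and 0.02. Of these 7, *Cnn2*, *Srf*, *Smtn* and *Cald1* turned negative with median-ratio scaling.

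Over the 10 genes, none was called in homozygous against wild-type hearts at a limma adjusted p under 0.05, where 0.336% of all tested genes (46 of 13682) were called. An unadjusted p under 0.05 was reached by 3 of the 10 genes, against 25.0% of all genes. Of these, *Cnn1* and *Myl9* had lower values, as had 2.16% of all genes, and *Mylk* had higher values, as had 22.9%. The same 3 genes were without overlap between the genotypes. Lower values without overlap were found for 2 of the 10 genes against 2.38% of all genes, and higher values without overlap for 1 of the 10 against 22.3% of all genes. All tested genes had a median log2 change of 0.23, and 81.7% of them lay above 0. The median of the 10 genes was 0.07, and 9 of the 10, all but *Mylk*, lay below the median of all genes. With median-ratio scaling, which brought the median of all genes to 0.02, the median of the 10 was −0.17 and *Myl9* was called (log2 change −0.90, limma adjusted p 0.0346). That scaling also changed the split of calls over all genes from 26 higher and 20 lower to 42 higher and 187 lower.

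*Cnn1* and *Myl9* passed the threshold in some alternative settings. Both were called without wild-type replicate 3 (limma adjusted p 0.0390 and 0.0461) and without homozygous replicate 1 (0.0328 and 0.0319), the library with the highest homozygous level of each. With libraries weighted by their spread, 4 of the genes were called, *Cnn1*, *Myl9*, *Mylk* and *Smtn*, in a fit that called 5068 of all genes. Over the 22 alternative settings the change of *Cnn1* ran from −1.57 to −0.95 (limma adjusted p 0.0290 to 0.324), that of *Myl9* from −0.90 to −0.47 (0.0319 to 0.335) and that of *Mylk* from 0.21 to 0.69 (0.0174 to 0.545). These 3 genes kept their direction in each of the settings. Without the 3 libraries with transcripts of other organs the changes were −1.15 for *Cnn1*, −0.47 for *Myl9* and 0.69 for *Mylk*, with limma adjusted p of 0.222, 0.242 and 0.207, and none of the 10 was called.

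**Figure D3:**
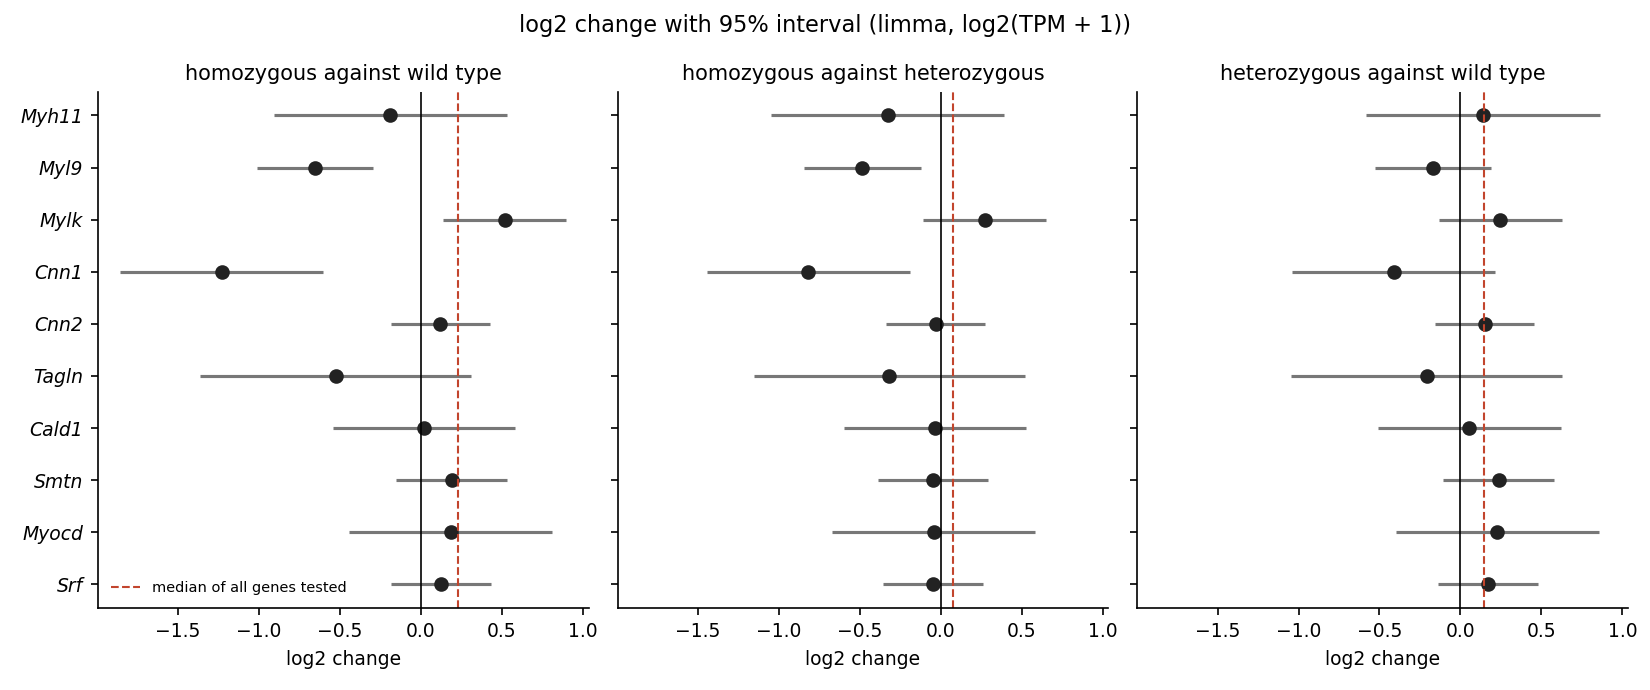
Log2 change of each of the 10 genes (points) with its 95% interval from limma on log2(TPM + 1), for the 3 comparisons. The solid line marks 0 and the dashed line the median of all genes tested, 0.23, 0.08 and 0.15 from left to right. In homozygous against wild-type hearts the intervals of *Cnn1* and *Myl9* lie below 0 and that of *Mylk* lies above it.

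Homozygous hearts were also compared with heterozygous hearts, which keep 1 wild-type allele. None of the 10 genes was called, where 0.0439% of all genes were. An unadjusted p under 0.05 was reached by 2 of the 10, *Cnn1* and *Myl9*, both with lower values, against 7.15% of all genes in either direction and 2.32% with lower values. None of the 10 was without overlap between these groups, against 15.9% of all genes. The log2 change of *Cnn1* was −0.82 (95% interval −1.45 to −0.19, limma adjusted p 0.650) and that of *Myl9* −0.48 (−0.84 to −0.12, limma adjusted p 0.624). With *Xist* as a covariate, a stand-in for sex, these were −0.44 and −0.24, and neither was called. Without the 3 libraries with transcripts of other organs they were −0.57 and −0.28 (limma adjusted p 0.646 and 0.637), and without homozygous replicate 2 *Cnn1* was at −0.54. *Myh11* and *Tagln* had changes of −0.33 and −0.32, with intervals on both sides of 0, and *Tagln* turned to 0.17 with *Xist* and to 0.23 without the 3 libraries. *Cnn2*, *Cald1*, *Smtn*, *Myocd* and *Srf* were between −0.05 and −0.03, and *Mylk* was at 0.27, with 0.42 without the 3 libraries and 0.17 without heterozygous replicate 2. The median of the 10 was −0.05, against 0.08 for all genes.

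In heterozygous against wild-type hearts, none of the 10 genes was called, where 0.0146% of all genes were, and none reached an unadjusted p under 0.05, against 6.87% of all genes. All 10 overlapped between the groups, against 13.8% of all genes without overlap. *Cnn1* had a log2 change of −0.41 (95% interval −1.04 to 0.22) and *Myl9* of −0.17 (−0.53 to 0.19), and the mean of each in heterozygous hearts, 18.3 ± 4.96 and 807 ± 88.5 TPM (SD, n = 3), lay between those of the other genotypes. With *Xist* as a covariate the changes were −0.80 and −0.42 (limma adjusted p 0.657 for both), without the 3 libraries −0.58 and −0.20, and without heterozygous replicate 2 −0.23 and −0.077. *Mylk* had a change of 0.25 (0.27 without the 3 libraries and 0.15 without wild-type replicate 2), and its heterozygous mean of 5.25 ± 0.785 TPM likewise lay between the others. The median of the 10, 0.15, was the same as that of all genes to 2 decimals. The 3 comparisons share their groups, so these orders are not separate evidence.

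Other contractile and cytoskeletal genes of smooth muscle were examined as a list of 15, of which 14 were tested. None was called in homozygous against wild-type hearts, where 0.336% of all genes were. Changes below 0 were found for 12 of the 14, while 81.7% of all genes were above 0. Their median change was −0.17, against 0.23 over all genes. Lower values without overlap were found for 3 of the 14, *Acta2*, *Csrp1* and *Tpm2*, against 2.38% of all genes, and higher values without overlap for none, against 22.3%. *Acta2*, the smooth muscle actin that embryonic cardiomyocytes also make, was at 444, 511 and 547 TPM for wild type, 495, 362 and 523 TPM for heterozygotes and 366, 196 and 312 TPM for homozygotes. Its homozygous values lay below all wild-type values, and limma gave a change of −0.82 with an SE of 0.22 and an adjusted p of 0.106. *Actg2*, the enteric smooth muscle actin, had a change of −0.63 with overlapping groups (limma adjusted p 0.371), and *Pdlim7* and *Vcl*, at the other end of the list, had changes of 0.07 and 0.19. *Des*, the intermediate filament gene shared by all muscle types, had means of 311 ± 36.4 TPM for wild type and 296 ± 43.4 TPM for homozygotes (SD, n = 3 each).

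Genes of the RhoA pathway and of myosin phosphatase set how long the light chain stays phosphorylated. None of the 14 was called, against 0.336% of all genes, and 13 of them had changes above 0, near the 81.7% of all genes. Their median was 0.14, against 0.23 over all genes. Of the 14, 2 were higher without overlap, against 22.3% of all genes, and none was lower, against 2.38%. *Arhgef1*, a RhoA activator, was at 54.96, 48.6 and 60.3 TPM for wild type and 69.8, 69.7 and 131 TPM for homozygotes, with no overlap and a limma adjusted p of 0.129. The highest value came from homozygous replicate 3, the library with thymocyte transcripts. *Prkg1*, a kinase that relaxes smooth muscle, had a log2 change of 0.56 with overlap, and the phosphatase genes *Ppp1r12c* and *Ppp1cb* were at −0.05 and 0.00.

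Of 16 genes for SRF cofactors and targets, 14 were tested. In homozygous against wild-type hearts 1 of them was called, against 0.336% of all genes. This was the skeletal actin *Acta1*, which also marks the embryonic heart. It was at 71.1, 79.6 and 66.2 TPM for wild type, 88.2, 59.1 and 68.5 TPM for heterozygotes and 36.2, 14.7 and 24.9 TPM for homozygotes (log2 change −1.56, limma adjusted p 0.0484). Like *Cnn1* and *Myl9*, it was named by the study from these libraries as a decreased gene, so its call here is not independent evidence. It was called in 8 of the 22 alternative settings. Without the 3 libraries with transcripts of other organs the change was −1.61 and was not called (limma adjusted p 0.179), nor was it with the replicate number as a block (0.0534). Leaving out a library ended its call in 7 of 9 cases (limma adjusted p 0.0532 to 0.235), and the call held without wild-type replicate 3 (0.0238) or homozygous replicate 1 (0.0187). For *Acta1*, as for *Cnn1* and *Myl9*, homozygous replicate 1 had the highest and replicate 2 or 3 the lowest homozygous level. The median of the 14 was −0.09, against 0.23 over all genes, with 7 above 0 and 7 below. An unadjusted limma p under 0.05 was reached by 8 of the 14, against 25.0% of all genes. These 8 are not split by direction here, while 22.9% of all genes were higher and 2.16% lower. The same threshold was reached by 3 of the 14 contractile genes, 1 of the 14 RhoA pathway genes and 2 of the 9 paralogues read below. Lower values without overlap were found for 2 of the 14 SRF cofactors and targets, against 2.38% of all genes. Higher values without overlap were found for 1, against 22.3%. The immediate-early genes *Fos* and *Egr1*, classical SRF targets, were uneven within wild-type hearts, with *Fos* at 120, 63.5 and 3.26 TPM and *Egr1* at 108, 77.5 and 12.4 TPM in replicates 1 to 3. In homozygous hearts *Fos* was at 1.96 to 4.75 TPM and *Egr1* at 8.51 to 13.2 TPM, both overlapping with wild-type replicate 3, and their log2 changes of −3.08 and −2.13 had limma adjusted p of 0.143 and 0.131. *Foxo4*, which encodes a factor known to bind myocardin, was at 13.5, 14.7 and 17.6 TPM for wild type and 21.6, 23.9 and 18.9 TPM for homozygotes without overlap (limma adjusted p 0.116), and *Mkl2*, an SRF cofactor, had a change of 0.47 with overlap.

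Paralogues of the members were read to see whether values like those of *Myl9* and *Cnn1* were found in their close relatives. Of 12 paralogues 9 were tested and none was called, against 0.336% of all genes. Their median change was 0.12, against 0.23 over all genes. No gene of these 4 lists was called in the other comparisons. Of all genes, 0.0439% were called in homozygous against heterozygous and 0.0146% in heterozygous against wild-type hearts. The light chain *Myl12a* was at 333, 317 and 293 TPM for wild type and 282, 220.2 and 239 TPM for homozygotes, without overlap (log2 change −0.35, limma adjusted p 0.126). Its close relative *Myl12b* was higher in every homozygous library, at 51.4, 42.2 and 49.5 TPM for wild type and 62.0, 65.6 and 57.8 TPM for homozygotes (log2 change 0.37, limma adjusted p 0.135). Of the 9 paralogues, 1 was lower without overlap, against 2.38% of all genes, and 1 was higher, against 22.3%. The calponin *Cnn3* was at 0.15, the transgelin *Tagln2* at −0.06, the nonmuscle heavy chains *Myh9* and *Myh10* at 0.22 and 0.11 and the cardiac kinase *Mylk3* at 0.21, each with overlapping groups.

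Low values of several of the 10 genes fell in the same libraries. Heterozygous replicate 2 was the lowest of its group for 7 of the 10 genes and the highest for none, and homozygous replicate 3 was the lowest for 8 and the highest for none. The share of all genes lowest in these libraries was not computed. Homozygous replicate 3 also had the lowest homozygous sums of cardiomyocyte genes (31350 TPM) and of 8 endothelial markers (450 TPM). Heterozygous replicate 2 had the lowest heterozygous sum of the cardiomyocyte genes but not of the endothelial markers. Genes of arterial matrix, such as those of elastic fibres, and markers of fibroblasts were also low in the same libraries. The sum of 8 arterial matrix genes was 1328, 501 and 1289 TPM in the heterozygous and 1417, 1192 and 536 TPM in the homozygous replicates, against 864 to 1003 TPM in wild-type hearts. The sum of 8 fibroblast markers was 1659, 1101 and 1782 TPM in the heterozygous and 1895, 1928 and 856 TPM in the homozygous replicates, against 1272 to 1528 TPM in wild-type hearts. The part of these cell types in the values of the 10 genes was not tested. Elastin (*Eln*) was at 671, 110 and 695 TPM in the heterozygous and 626, 418 and 185 TPM in the homozygous replicates. All 8 matrix genes were detected in every library, none was called and none was without overlap in the 3 comparisons. In homozygous against wild-type hearts 0.336% of all genes were called, and 22.3% were higher and 2.38% lower without overlap. Against heterozygous hearts 0.0439% were called and 15.9% were without overlap. In heterozygous against wild-type hearts these shares were 0.0146% and 13.8%. *Tagln* and *Myh11* were likewise low in heterozygous replicate 2. In homozygous replicate 2 the matrix sum was above the wild-type range, and *Cnn1* and *Acta2* had their lowest values of the 9 libraries. *Myl9* and *Tagln* had their lowest values of the 9 in homozygous replicate 3, where the matrix sum was 536 TPM. The next lowest *Myl9* value, 537 TPM, came from homozygous replicate 2, where the matrix sum was 1192 TPM.

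**Figure D4:**
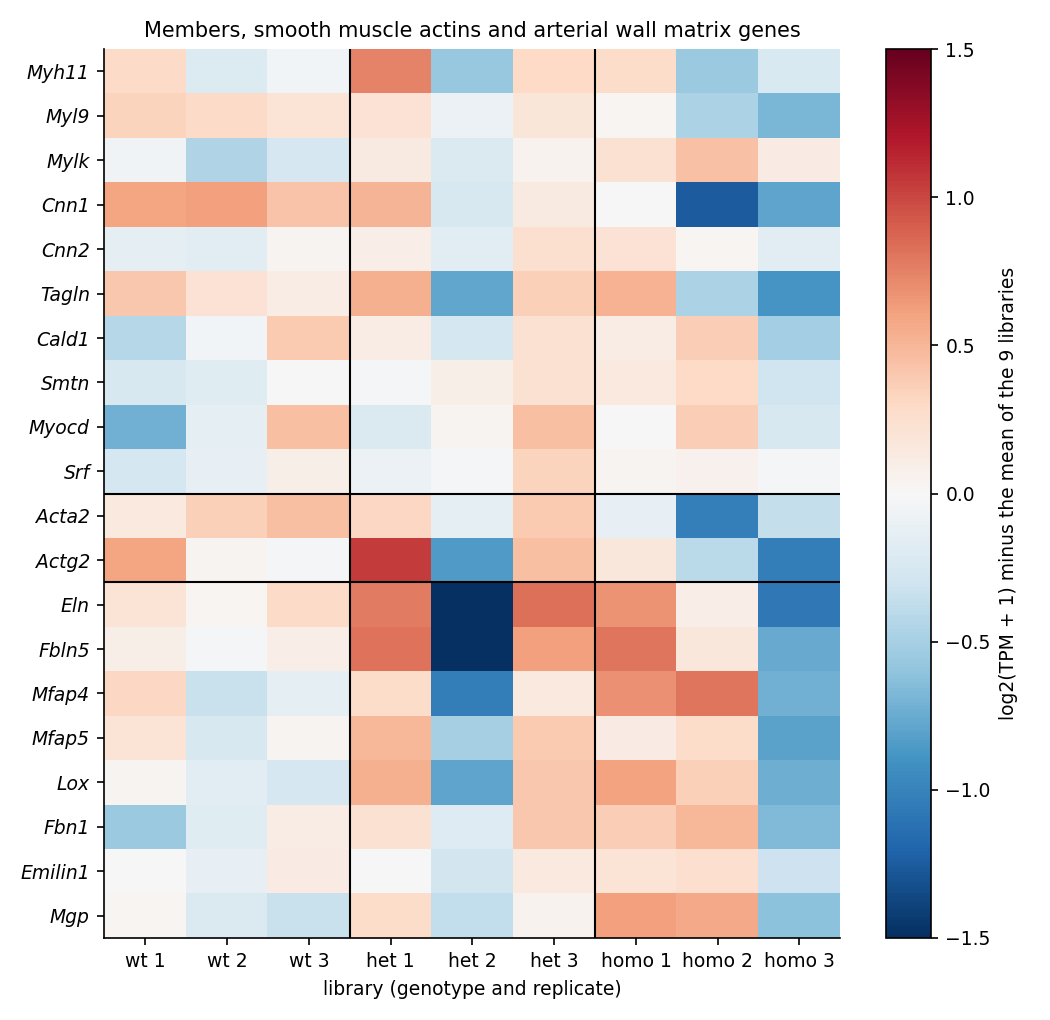
Log2(TPM + 1) of each gene minus its mean over the 9 libraries, for the 10 genes (top), the smooth muscle actins (middle) and 8 arterial wall matrix genes (bottom), with libraries in columns. Values past either end of the colour scale take the end colour. Heterozygous replicate 2 and homozygous replicate 3 are blue for most matrix genes. Homozygous replicate 2 is blue for *Cnn1*, *Myl9*, *Myh11*, *Tagln*, *Acta2* and *Actg2* but not for the matrix genes.

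Markers of mural cells, the pericytes and smooth muscle cells of small vessels, summed to 178 to 268 TPM for wild type, 231 to 286 TPM for heterozygotes and 207 to 309 TPM for homozygotes. The highest heterozygous sum came from replicate 1, the library with liver transcripts, where the marker *Vtn* was at 33.1 TPM, against 0.66 to 2.55 TPM elsewhere. All 8 mural markers had a log2 change above 0 in homozygous against wild-type hearts, as had 81.7% of all genes. Their median was 0.37 against 0.23 over all genes, and none was called, against 0.336% of all genes. All 8 endothelial markers were above 0 as well, with a median of 0.30. *Notch3*, the receptor that specifies mural cells, was without overlap with a change of 0.48 (limma adjusted p 0.148). Of the 8 mural markers, 1 was higher without overlap, against 22.3% of all genes. The part of vessel content in the values of *Cnn1* and *Myl9* was not tested. The sum of 8 skeletal muscle genes stayed between 12.6 and 25.7 TPM in the 9 libraries.

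The position of the genes bears on how reads could be assigned to them. On mm10, with GENCODE release M21, *Cnn1* spans chr9:22099216-22109630 on the plus strand and *Myl9* chr2:156775420-156781658 on the plus strand, and neither overlaps another annotated gene. *Mylk* (chr16:34745210-35002420, plus strand) overlaps 3 genes on the opposite strand, *Tagln* (chr9:45929619-45936058, minus strand) overlaps *Pcsk7* and *Gm48529*, and *Cald1* and *Smtn* overlap 3 and 2. *Srf* (chr17:46548329-46556175, minus strand) overlaps 1 gene on each strand. Since the use of strand is not stated in the sources used here, reads from such partners cannot be told apart from those of these 5 genes. At most 1.10% of a member's 31-base words, that of *Cnn2*, occurred in transcripts of other genes, and for *Myl9* it was 0.412%.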

How the data were processed

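Hearts of E18.5 embryos were profiled by poly-A RNA sequencing (mRNA capture beads, VAHTS Universal V8 kit). Adapters and low-quality bases were removed by the authors in Trim Galore (v0.6.10), alignment to mm10 used STAR (v2.7.4a), and RSEM (v1.2.28) gave the gene levels. Which annotation release was used, and whether strand was, is not given in the sources used here. The deposited values are TPM, which the authors computed from estimated counts, gene length and the library total. TPM keep no depth, so counting error is unknown and the spread between libraries is the only measure of precision. The values of a library summed to 999099.7 to 999244.815. The study's DESeq2 test needs counts and was not run.

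Libraries were grouped by their titles. Of 24597 rows, 26 with symbols turned into dates were left out. Genes averaging 1 TPM or more were tested on the log2(TPM + 1) scale in R (v4.3.3) by limma (v3.58.1), whose eBayes step used a trend, over all 9 libraries and without covariates. Tests were two-sided with Benjamini-Hochberg adjustment over the 13682 genes, and an adjusted p under 0.05 was called. Ratios within libraries were compared by exact permutation. The procedure was run on simulated data with independent noise for each gene and library. These held no transcripts of other organs and no shift shared by all genes, so they do not bear on such features. Loci and shared 31-base words came from GENCODE M21 and promoters from RefSeq.

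The members and gene lists were chosen with earlier results of these data known. All members were named. Of 4 related lists, genes called in a comparison were named, with the 2 highest and 2 lowest changes among genes averaging 5 TPM or more. *Des*, *Eln*, *Notch3*, *Csrp1*, *Tpm2* and the paralogues *Cnn3*, *Myh10* and *Mylk3* were added after their values were seen. Marker lists of cell types were summed per library. Results were recomputed under 22 alternatives covering pseudocount, filter, scaling, weighting, variance model, covariate, replicate block and left-out libraries.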

Additional observations from a re-analysis of the deposited data

How the results depend on the processing

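The count of the 10 genes called in homozygous against wild-type hearts was 0 in 18 of the 22 alternatives. It was 1 with median-ratio scaling, 4 with arrayWeights, and 0 to 2 when a library was left out, reaching 2 without wild-type replicate 3 or homozygous replicate 1. None of the 10 was called in the other comparisons in any of the 22. The median of the 10 was −0.17 with median-ratio scaling. The changes of *Cnn1*, *Myl9* and *Mylk* kept their sign in all comparisons and settings. Of the genes whose values turned sign, *Smtn* was called with arrayWeights and the others in no setting.
In homozygous against wild-type hearts these were, with median-ratio scaling, *Cnn2* (−0.12), *Cald1* (−0.22), *Smtn* (−0.050), *Myocd* (−0.050) and *Srf* (−0.11), with quantile normalization *Cald1* (−0.12), *Myocd* (−0.023) and *Srf* (−0.043), and with arrayWeights *Myh11* (0.025).
In homozygous against heterozygous hearts they were, with arrayWeights, *Cnn2* (0.055), *Cald1* (0.10), *Smtn* (0.086) and *Myocd* (0.054), with *Xist* as covariate *Myh11* (0.028), *Cnn2* (0.032) and *Tagln* (0.17), and without the 3 libraries with transcripts of other organs *Cnn2* (0.080), *Tagln* (0.23), *Cald1* (0.26) and *Smtn* (0.062).
In heterozygous against wild-type hearts they were, with median-ratio scaling, *Myh11* (−0.00098), *Cnn2* (−0.011) and *Cald1* (−0.11), with quantile normalization *Myh11* (−0.047) and *Cald1* (−0.056), with *Xist* *Myh11* (−0.23), and without the 3 libraries *Myh11* (−0.016) and *Cald1* (−0.19).
With a library left out, the homozygous against wild-type changes ran from −0.18 to 0.27 for *Cald1*, −0.41 to 0.0064 for *Myh11* and −0.11 to 0.48 for *Myocd*. Those of homozygous against heterozygous hearts ran from −0.23 to 0.22 for *Cald1*, −0.14 to 0.063 for *Cnn2*, −0.21 to 0.14 for *Myocd*, −0.17 to 0.13 for *Smtn* and −0.13 to 0.086 for *Srf*, and the *Myl9* to *Myh11* ratio from −0.39 to 0.12. Those of heterozygous against wild-type hearts ran from −0.15 to 0.26 for *Cald1*, −0.15 to 0.51 for *Myh11*, −0.064 to 0.52 for *Myocd* and −0.45 to 0.20 for *Tagln*. The causes were not tested.
The deviations of same-numbered libraries correlated between −0.03 and 0.36 across genes. Between wild type and heterozygotes they were 0.36 for replicate 1, 0.06 for replicate 2 and 0.30 for replicate 3. Differently numbered libraries of these 2 genotypes gave −0.31 to 0.12. Same-numbered pairs with a homozygous library were between −0.03 and 0.06. The labels do not say whether the numbers pair the libraries. With the replicate number as a block none of the 10 genes was called, the adjusted p (limma) was 0.0822 for *Cnn1* and 0.118 for *Myl9* in homozygous against wild-type hearts, and all genes gave 17 calls in place of 46.
The count over all genes in that comparison ran from 11 to 5068. As TPM keep no depth, values of low genes such as *Myh11* and *Mylk* carry an unknown counting error.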
